A study of Mus musculus with 4 samples.

Results

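The pro-B and large pre-B cells of the bone marrow (BM) were 185 of the 39743 cells kept from 4 single-cell RNA libraries of 5TMM model mice. They were chosen by transcript: at least 1 UMI (a counted molecule) of Cd79a, at least 3 UMIs of Vpreb1 and Igll1 together, at most 1 UMI of Ighd, no Siglech, and at most 1 UMI over Mmp8, Mmp9 and Cxcr2, in cells in which 300 or more genes were detected and mitochondrial UMIs were 20% or less. Vpreb1, Igll1 and Cd79a levels therefore describe the choice and are not findings. The 5TMM mice were C57BL/KawRij mice that received 5TGM1 myeloma cells carrying luciferase by vein at 6 weeks of age and were treated some weeks later, so all groups share the tumor and the host marrow around it. The 2 groups, of 2 mice each, were vehicle and purinostat mesylate (PM), an inhibitor of class I and IIb histone deacetylases (HDACs), at 10 mg/kg for 24 h, with 1 library of total BM after red cell lysis per mouse. The question was how PM changed the marrow around the myeloma, here in its earliest committed B cells.

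A pro-B cell rearranges its heavy-chain gene with the RAG1 and RAG2 nuclease, and terminal transferase (Dntt) adds bases at the joints. If a heavy chain is made, it pairs with the surrogate light chain, built from VPREB and IGLL1 (λ5), and with CD79A and CD79B to form the pre-B cell receptor (pre-BCR). The large pre-B cell then divides under pre-BCR and interleukin-7 signals with RAG expression low, before it leaves the cycle, switches the surrogate chain off and rearranges a light chain as a small pre-B cell.

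Vehicle libraries 1 and 2 gave 16 and 71 of these cells, and PM libraries 1 and 2 gave 61 and 37. Their summed UMIs were 80337, 572671, 521160 and 408084 in the same order, with medians of 3168, 5486, 6812 and 8652 UMIs per cell. Vehicle 1 was therefore the shallowest sum, in which 1 UMI was worth 12.4 CPM (UMIs scaled to a common library sum) against 1.75, 1.92 and 2.45 CPM in the others. Kept cells numbered 9261, 7826, 13387 and 9269, from libraries of 86052982, 69828595, 109447030 and 74388936 UMIs.

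The label held against the markers. Ebf1, the factor that commits cells to the B lineage, had a UMI in 100% of the 185 cells, Vpreb3 in 99.5%, Pax5 in 90.8% and the interleukin-7 receptor Il7r in 79.5%. The 24584 neutrophil-rich cells lay outside the gate, with no Cd79a UMI and at least 200 UMIs over 6 neutrophil genes. B cell RNA there may be lower by that choice. In these cells, where B cell genes should be silent, Ebf1 had a UMI in 0.443% and Il7r in 1.03%. Their median was 5324 UMIs against 6356 in the gated cells. Vpreb1 (0.427%) and Igll1 (0.203%) were low there too, but they chose the gated cells, so that gap is no support for the label. Kit, carried by pro-B cells, had a UMI in 17.8% of gated cells, and Il2ra, which marks later pre-B cells, in 4.86%. In neutrophil-rich cells these shares were 13.2% and 0.187%, so the Kit share did not set the gated cells clearly apart. The gated cells held a median of 21 UMIs of Vpreb1 and Igll1 together, with library medians of 18.5 and 23 in vehicle and 19 and 24 in PM. Near the limit of 3, 14 cells with 3 to 5 UMIs lay just inside, with a median of 5078 UMIs in all, and 11 cells with 2 UMIs lay just outside, with a median of 2943.

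The windows before 2 genes of the pre-BCR, Igll1 and Vpreb3, show the sequence next to the start sites of genes that mark this stage. Each window is the 250 bases before the RefSeq start site on GRCm38.p6, 5′ to 3′ on the gene's strand, free of annotated exons, with matches to 6 short motifs of early B cell factors in capitals. The motifs were TCCC and GGGA with 2 bases between them (EBF1), CAGGTG and CAGCTG (E-boxes bound by E proteins), TGGGAA (Ikaros core), TGTGGTT (Runt) and ATGCAAAT (octamer), searched on both strands. Over the 32851 windows in the table they occurred in 0.779%, 17.2%, 13.0%, 21.6%, 4.4% and 1.6%. Of 24 genes looked up, 16 had an entry. Igll1 lies at chr16:16860671-16863985 (GENCODE M21, GRCm38) and its window is chr16:16863986-16864235 on the minus strand, with CAGGTG at bases -8 to -3 from the start site, TGTGGTT at -124 to -118 and CAGCTG at -158 to -153. Vpreb3, whose product helps pre-BCR assembly, has its window at chr10:75948050-75948299 on the plus strand, with the octamer at -45 to -38.
Igll1: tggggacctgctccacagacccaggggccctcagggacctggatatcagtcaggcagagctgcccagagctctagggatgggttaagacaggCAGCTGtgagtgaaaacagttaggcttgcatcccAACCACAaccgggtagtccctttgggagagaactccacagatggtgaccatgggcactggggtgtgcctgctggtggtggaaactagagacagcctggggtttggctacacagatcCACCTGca
Vpreb3: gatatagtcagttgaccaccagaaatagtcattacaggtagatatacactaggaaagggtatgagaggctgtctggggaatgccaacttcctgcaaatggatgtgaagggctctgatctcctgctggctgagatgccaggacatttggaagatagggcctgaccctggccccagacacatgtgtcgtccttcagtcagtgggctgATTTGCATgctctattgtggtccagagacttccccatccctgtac
A match shows letters only, and no binding was measured in these libraries.

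RNA of other lineages was small in most gated cells and uneven between libraries. The 10 monocyte and macrophage markers took 0.137 and 0.636 per mille of UMIs in vehicle 1 and 2 and 0.223 and 0.135 per mille in PM 1 and 2. Lyz2 was the most abundant of them, at 37.3 and 416 CPM in vehicle and 125 and 49.0 CPM in PM. The 9 erythroid markers took 0.0747, 4.28, 0.286 and 0.292 per mille, with Hbb-bs at 0 and 1441 CPM in vehicle and 15.4 and 14.7 CPM in PM. Vehicle 2 therefore stood apart in both lists, and 3 of its cells had over 20 per mille of their UMIs in the neutrophil, monocyte, T and NK and erythroid markers, against a median of 2.14 per mille and a highest value of 532 per mille. In the sums of gated cells, results of called genes are given without these 3 cells where a call was lost. Genes that gained a call without them are counted below but not named. The 12 neutrophil markers, led by S100a9, took 1.59, 1.16, 1.95 and 1.26 per mille, against 297 to 324 per mille in neutrophil-rich cells. Of the 12 T and NK markers 7 had a UMI, with Cd3e, Cd3g, Trbc1, Trac and Cd8a at 0 in every library. Of the 10 plasma and myeloma markers 8 had a UMI, led by Mzb1, with Tnfrsf17 and the light-chain segment Igkv10-96 at 0. Of the 8 plasmacytoid dendritic markers 4 had a UMI, led by Irf8. Irf8 was at 274 and 244 CPM in vehicle and 184 and 189 CPM in PM. Siglech (by choice), Ccr9, Klk1 and Pacsin1 were at 0. Of the 11 mature and immature B markers 10 had a UMI, led by Igkc, with Fcer2a at 0. Igkc was at 212 and 203 CPM in vehicle and 186 and 208 CPM in PM. A doublet caller marked 1 of the 71 cells of vehicle 2 and none in the other libraries. It marked only 36.3% and 41.1% of simulated doublets in vehicle 1 and 2 and 48.2% and 35.2% in PM 1 and 2, so doublets can be missed. No gated cell shared its barcode with a gated cell of another library.

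The share of pro-B and large pre-B cells among all kept cells overlapped between the groups. It was 0.173% and 0.907% in vehicle and 0.456% and 0.399% in PM, or 0.54% ± 0.519 against 0.427% ± 0.0399 (SD, n = 2 mice each, exact two-sided permutation p = 1). Without vehicle 2 the difference changed sign, to 0.255 percentage points higher in PM. B lineage cells were counted as these cells and any kept cell with a UMI of both Cd79a and Cd79b. They numbered 291 and 1047 in vehicle and 1729 and 836 in PM. This set is wider than the B cell classes compared below, since no limit on plasma cell genes was set. Among them the share was 5.50% and 6.78% in vehicle and 3.53% and 4.43% in PM, so the groups did not overlap. The means were 6.14% ± 0.907 and 3.98% ± 0.635, and the exact permutation p of 0.33 is the smallest that 2 mice against 2 allow. Intervals and tests on shares cannot separate fewer cells of this type from more cells of the others.

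Cells in cycle made up more of the pro-B and large pre-B cells in both PM mice than in both vehicle mice. Cycling was called at 3 or more UMIs over 15 genes of S, G2 and M phase such as Mki67, Top2a and Ccna2, and few cells lay near that limit: 84 cells had 0 to 2, 8 had 3 to 9 and 93 had 10 or more. In vehicle 6 of 16 and 33 of 71 cells cycled, or 37.5% (exact 95% binomial interval 15.2 to 64.6) and 46.5% (34.5 to 58.7). In PM 35 of 61 and 27 of 37 cycled, or 57.4% (44.1 to 70.0) and 73.0% (55.9 to 86.2). These intervals cover counting error only. The means were 42.0% ± 6.35 and 65.2% ± 11.0 (SD, n = 2), higher in PM in 4 of 4 pairs of mice, at an exact permutation p of 0.33, the smallest possible. PM cells were also deeper, and with every cell thinned to 2000 UMIs the shares were 38.5% and 44.6% in vehicle and 45.8% and 71.4% in PM (13, 65, 59 and 35 cells), still without overlap but with PM 1 next to vehicle 2. The same cells before thinning gave 46.2%, 50.8%, 59.3% and 77.1%. In the next B cell stages the order was not the same: 13.8% and 9.11% of small pre-B and immature B cells cycled in vehicle and 5.28% and 8.78% in PM, and 2.70% and 3.99% of mature B cells in vehicle and 3.95% and 5.44% in PM.

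**Figure D1:**
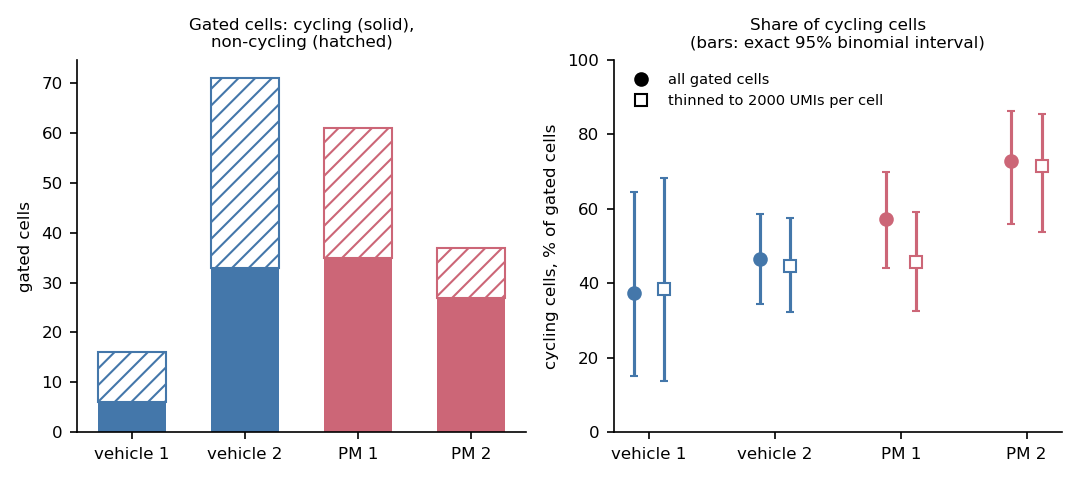
Left, gated cells per library, with cycling cells solid and non-cycling cells hatched. Right, cycling cells as a percentage of gated cells per library, before (circles) and after (squares) thinning to 2000 UMIs per cell, with exact 95% binomial intervals. The cycling shares of 57.4% and 73.0% in PM lie above the 37.5% and 46.5% in vehicle, with wide intervals in vehicle 1, which holds 16 cells.

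Rag1, Rag2 and Dntt were lower in the cycling than in the non-cycling cells, which is given as a description. Hmgb2, a chromatin protein gene and the most abundant member of that list over all gated cells, was higher in cycling cells (5911, 5249, 4479 and 5243 against 850, 649, 446 and 273 CPM). Rag1 was at 1098 and 1198 CPM in non-cycling vehicle cells and 964 and 911 CPM in non-cycling PM cells, against 0, 67.1, 7.06 and 21.3 CPM in cycling cells. A Rag1 UMI was present in 78.6% of the 84 non-cycling and 17.8% of the 101 cycling cells, although cycling cells were deeper (median 10159 against 2936 UMIs). Vpreb3, Ebf1, Dntt, Rag2 and the factor Lef1 were lower in cycling than in non-cycling cells in all 4 libraries, by 1.53 ± 0.30 (Vpreb3), 1.47 ± 0.22 (Ebf1), 2.28 ± 0.77 (Dntt), 2.33 ± 0.87 (Rag2) and 2.14 ± 0.54 (Lef1) on the log2(CPM + 20) scale (mean ± SD of 4 libraries). Cd24a, a surface protein of B cell precursors, was higher in cycling cells in all 4 libraries by 1.20 ± 0.13, and cyclin D3 (Ccnd3), the cyclin that pre-B cells need to expand, by 1.44 ± 0.30. The myosin light chain gene Myl4 was at a mean of 482 CPM in cycling and 13.3 CPM in non-cycling cells, a gap of 4.07 ± 1.01. The heavy-chain transcript Ighm hardly separated the states, at a mean of 2822 CPM in cycling and 3460 CPM in non-cycling cells and lower in cycling cells in 3 of 4 libraries. Cycling cells held 64.9% and 75.5% of the gated UMIs in vehicle and 81.5% and 91.9% in PM, so a sum over all gated cells weights them more in PM. Values by state are given below for several genes.

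**Figure D2:**
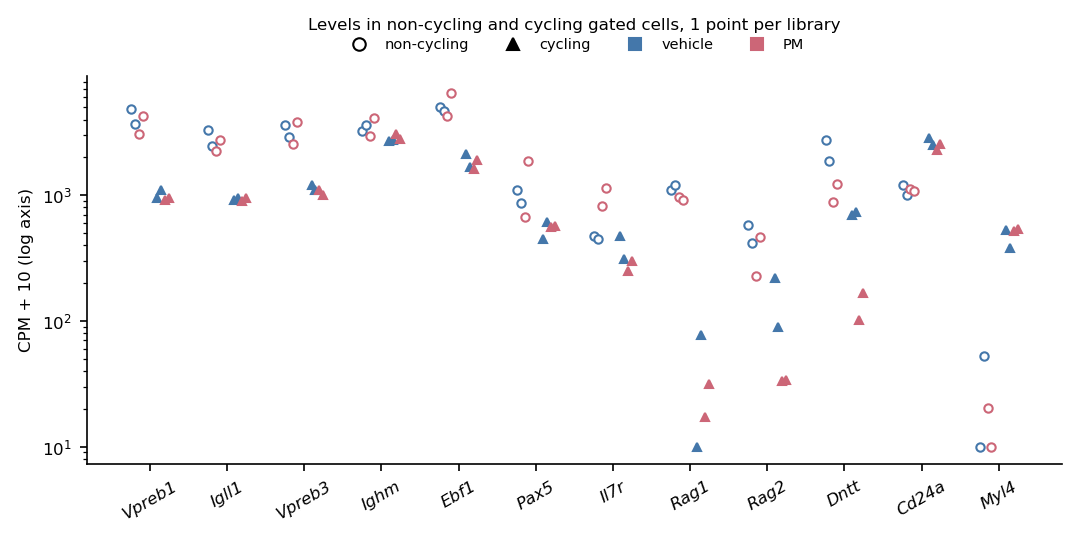
CPM + 10 on a log axis in non-cycling (open circles) and cycling (filled triangles) gated cells for 12 genes, 1 point per library, vehicle blue and PM red (Vpreb1 and Igll1 were used to choose the cells). Rag1 is at 911 CPM or more in non-cycling cells and at most 67.1 CPM in cycling cells of all 4 libraries, while Cd24a and Myl4 are higher in cycling cells.

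PM changed 41 of 6801 genes tested in the sum of all gated cells (0.603%), 15 higher (0.221%) and 26 lower (0.382%), at an adjusted p under 0.05 and an absolute log2 fold change over 0.5. The balance of rises and falls was not stable, with 67 higher and 65 lower without vehicle 2 and 6 higher and 4 lower without PM 2. The rises included the invariant chain Cd74, cyclin D2 (Ccnd2), Socs2 and Ly6a, and the falls the recombination genes Dntt, Rag2 and Rag1, the adaptor Blnk, and Arpp21 and Btg2. In cycling cells 16 of 6036 genes passed (0.265%), 6 higher (0.0994%) and 10 lower (0.166%). In non-cycling cells, whose sums were 28232 and 140190 UMIs in vehicle and 96485 and 32932 in PM, 1 of 1350 did (0.0741%), the surface gene Ly6d, with 87 at an unadjusted p under 0.05. Without the 3 vehicle 2 cells rich in other-lineage RNA, 23 genes passed in all gated cells, all of them among the 41, the same 16 in cycling cells, and 7 (6 higher, 1 lower) in non-cycling cells. A change in a sum over cells can come from more or less RNA per cell or from a shift among the cells in it. Leaving out vehicle 1, vehicle 2, PM 1 or PM 2 kept 36, 26, 12 and 8 of the 41 calls and 8, 10, 4 and 3 of the 16, and Dntt was the only gene of the 16 to keep its call in all 4 cases. In all gated cells Dntt, Cd74, Ccnd2, Arpp21 and Socs2 did, although Socs2 did not pass with DESeq2 (adjusted p = 0.329). DESeq2 called 8 of the 41, Dntt, Cd74, Ccnd2, Arpp21, Blnk, Btg2, Klhl24 and Tspan13, and 2 of the 16, Dntt and Ccnd2. At an unadjusted p under 0.05 were 704 of the 6801 genes in all gated cells and 419 of the 6036 in cycling cells, the background for the counts at that limit in the lists below. The replicates were separate mice, and the p-values measure the spread between these 4.

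Of the 14 genes of V(D)J recombination 11 could be tested, and Dntt, Rag2 and Rag1 fell, where 0.382% of all genes tested did. Their median log2 fold change was -0.58, with 2 above 0, against 0.02 over all genes tested. Dntt was at 1407 and 1006 CPM in vehicle and 238 and 243 CPM in PM. The groups lay far apart, and the log2 fold change was -2.21 ± 0.26 (SE, adjusted p = 8.7e-08). The fall was as large within cycling cells, from 691 and 726 CPM to 91.8 and 157 CPM (-2.46 ± 0.29, adjusted p = 1.28e-12). In non-cycling cells Dntt was at 2727 and 1869 CPM in vehicle and 881 and 1215 CPM in PM, without overlap, but this did not pass (-1.08 ± 0.37, adjusted p = 0.257). A Dntt UMI was found in 68.8% and 66.2% of vehicle cells and 39.3% and 35.1% of PM cells, against 0.338% of neutrophil-rich cells. Dntt kept its call in all gated cells and in cycling cells under every alternative that gave a value.

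Rag1 and Rag2 both fell in the sum of all gated cells, and their values differed by state. Rag1 was at 386 and 344 CPM in vehicle and 184 and 93.1 CPM in PM over all gated cells (-1.27 ± 0.28, adjusted p = 0.00837). Non-cycling cells held 31 of 31 and 168 of 197 Rag1 UMIs in vehicle and 93 of 96 and 30 of 38 in PM. Within them the values were 1098 and 1198 against 964 and 911 CPM (-0.25 ± 0.37, adjusted p = 0.974), and in cycling cells Rag1 was too low to be tested. The part of the larger weight of cycling cells in the PM sums in the Rag1 fall was not tested. The Rag1 call was lost without PM 2 (-0.86, adjusted p = 0.872) and with DESeq2 (-1.29, adjusted p = 0.328). Rag2 was at 336 and 159 CPM in vehicle and 59.5 and 58.8 CPM in PM over all gated cells (-1.73 ± 0.33, adjusted p = 0.00248). Rag2 also fell in cycling cells, from 211 and 78.6 CPM to 23.5 and 24.0 CPM (-2.04 ± 0.48, adjusted p = 0.0143), while in non-cycling cells it was at 567 and 407 against 218 and 455.5 CPM (-0.57 ± 0.39, adjusted p = 0.897). The Rag2 calls were lost without either PM library (adjusted p = 0.0801 without PM 1 and 0.0997 without PM 2 in all gated cells) and with DESeq2 (0.057), and that in cycling cells was lost under 5 of 13 alternatives. The other tested members, among them the end-joining genes Xrcc6 (311 and 176 against 117 and 108 CPM, adjusted p = 0.208) and Lig4 (174 and 68.1 against 49.9 and 66.2 CPM, adjusted p = 0.629), did not pass.

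The windows before these 3 genes are shown because the genes were called together. Rag1 (chr2:101638282-101649501) and Rag2 (chr2:101624718-101632529) lie tail to tail, with windows at chr2:101649533-101649782 on the minus strand and chr2:101624462-101624711 on the plus strand. Dntt (chr19:41029275-41059525) has its window at chr19:41029025-41029274 on the plus strand. In the Rag1 window the same 6 motifs matched at -135 to -130 (CAGGTG), -128 to -123 (CAGCTG), -81 to -75 (TGTGGTT) and -52 to -47 (TGGGAA), and the Rag2 and Dntt windows held none of these letters.
Rag1: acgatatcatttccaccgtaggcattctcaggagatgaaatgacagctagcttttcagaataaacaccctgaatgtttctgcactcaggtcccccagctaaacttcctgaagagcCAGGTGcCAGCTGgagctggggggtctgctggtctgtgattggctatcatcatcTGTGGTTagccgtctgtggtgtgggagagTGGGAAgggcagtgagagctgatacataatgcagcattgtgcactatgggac
Rag2: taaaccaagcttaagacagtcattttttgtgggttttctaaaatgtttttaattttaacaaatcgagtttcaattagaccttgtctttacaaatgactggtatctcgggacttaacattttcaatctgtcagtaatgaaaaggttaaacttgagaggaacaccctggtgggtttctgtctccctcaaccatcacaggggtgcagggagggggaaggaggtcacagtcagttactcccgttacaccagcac
Dntt: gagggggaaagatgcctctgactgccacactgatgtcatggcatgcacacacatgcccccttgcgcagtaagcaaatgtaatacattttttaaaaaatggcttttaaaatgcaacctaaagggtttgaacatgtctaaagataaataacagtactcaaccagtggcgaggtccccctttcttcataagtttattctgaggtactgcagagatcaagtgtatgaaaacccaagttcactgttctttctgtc
Dntt is also the neighbour of Blnk, the adaptor described next. Their start sites on chromosome 19, at 41029275 and 40994535, are 34740 bases apart on opposite strands, and no annotated gene lies wholly between them.

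Of the 22 genes of the pre-BCR and its signalling, all tested, Blnk fell and no other gene passed, beside 0.382% of all genes tested that fell, where Vpreb1, Igll1 and Cd79a were used to choose the cells. BLNK links the receptor's kinase SYK to the signals that end the division of pre-B cells. It was at 958 and 576 CPM in vehicle and 301 and 270 CPM in PM (-1.26 ± 0.26, adjusted p = 0.0045). In cycling cells Blnk fell from 710 and 419 to 191 and 227 CPM (-1.23 ± 0.28, adjusted p = 0.0127), and in non-cycling cells it was at 1417 and 1063 against 788 and 759 CPM (-0.58 ± 0.38, adjusted p = 0.897). The vehicle values exceeded the PM values in each state. The call in all gated cells was lost without PM 1 (adjusted p = 0.327) or PM 2 (0.666), with log2 fold changes of -1.38 and -1.18, and that in cycling cells under 7 of 13 alternatives. Vpreb2, the copy of Vpreb1 that a 3′ read may not always tell from it, was at 213 and 442 CPM in non-cycling vehicle cells and 985 and 881 CPM in non-cycling PM cells, a log2 fold change of 1.38 ± 0.39 that did not pass (adjusted p = 0.0917). Ighm was at 2863 and 2953 CPM in vehicle and 3043 and 2914 CPM in PM. Over the 19 genes that did not choose the cells the median was -0.22, with 5 above 0, and 5 had an unadjusted p under 0.05. In cycling cells the median of the 19 was -0.06.

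None of the 30 tested of 34 B lineage transcription factors passed, with a median of -0.33 and 7 at an unadjusted p under 0.05. None of the 29 tested in cycling cells passed either, with a median of -0.23 and 5 at that limit. Pax5, which holds the B cell identity, was at 672 and 667 CPM in vehicle and 570 and 667 CPM in PM (-0.04 ± 0.25, adjusted p = 0.978). Ebf1 was at 3149 and 2417 CPM in vehicle and 2099 and 2247 CPM in PM (-0.26 ± 0.23, adjusted p = 0.757). Foxo1, which drives Rag and Blnk transcription in these cells, was at 249 and 192 against 67.2 and 127 CPM, lower in 4 of 4 pairs, but missed the threshold (-1.06 ± 0.30, adjusted p = 0.097).

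In the list of interleukin-7, cytokine and niche signals 14 of 21 genes were tested and 3 passed, where 0.603% of all genes tested did, among them Socs2, which rose, and Itga4, which fell. Socs2, an inhibitor of cytokine signalling that STAT5 switches on, was at 0 and 36.7 CPM in vehicle and 121 and 127 CPM in PM (2.04 ± 0.41, adjusted p = 0.00323). It rested on 0 and 21 UMIs against 63 and 52, and the 0 of vehicle 1 allows up to 37.3 CPM, so the groups did not overlap even at that limit. Over the alternatives the log2 fold change of Socs2 ran from 1.78 to 8.40, and from 1.58 to 7.90 in cycling cells. Its values in PM were high in both states, at 89.5 and 120 CPM in cycling cells, where the rise passed (1.81 ± 0.45, adjusted p = 0.0292), and 259 and 213 CPM in non-cycling cells, where it did not (2.79 ± 0.83, adjusted p = 0.118). In cycling cells the Socs2 call was lost under 10 of 13 alternatives, among them when any 1 library was left out, with adjusted p from 0.0866 to 0.998. Socs2 had a UMI in 0.216% of neutrophil-rich cells. Itga4, the integrin chain that holds B cell precursors to the stroma, was at 622 and 330 CPM in vehicle and 194 and 184 CPM in PM (-1.11 ± 0.27, adjusted p = 0.0269). In non-cycling cells Itga4 was at 921 and 556 against 342 and 638 CPM, where the groups overlapped. The Itga4 call was lost without vehicle 1 (-0.78, adjusted p = 0.132), without PM 1 (adjusted p = 0.454), without PM 2 (0.691), without the other-lineage cells (0.0587), with DESeq2 (0.311), with no filter on low counts (0.0696) and at 6 or more Vpreb1 and Igll1 UMIs (0.0586). Il7r itself was at 461 and 332 against 343 and 358 CPM (-0.03 ± 0.25, adjusted p = 0.987). Within non-cycling cells Il7r was at 460 and 435 CPM in vehicle and 808 and 1124 CPM in PM without overlap (1.12 ± 0.39, adjusted p = 0.275), and in cycling cells at 461 and 298 against 238 and 291 CPM (-0.32 ± 0.28, adjusted p = 0.922).

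Among the G1 regulators Ccnd2 rose while the brakes Btg2 and Cdkn1b fell, 3 of 20 tested of 24, where 0.221% of all genes tested rose and 0.382% fell. Ccnd2 was at 199 and 269 CPM in vehicle and 744 and 931 CPM in PM (1.81 ± 0.27, adjusted p = 2.33e-05), and a UMI was found in 37.5% and 39.4% of vehicle and 67.2% and 67.6% of PM cells, against 6.82% of neutrophil-rich cells. In cycling cells it rose from 230 and 261 to 711 and 994 CPM (1.80 ± 0.29, adjusted p = 5.36e-06), a call lost without PM 2 (1.59, adjusted p = 0.207). In non-cycling cells it was at 142 and 292 against 891 and 213 CPM, where the groups overlapped (1.37 ± 0.38, adjusted p = 0.0917). Btg2, which slows the cycle, was at 585 and 241 CPM in vehicle and 107 and 103 CPM in PM (-1.66 ± 0.30, adjusted p = 0.00182), and in cycling cells it fell from 211 and 109 to 35.3 and 45.3 CPM (-1.61 ± 0.40, adjusted p = 0.0281), a call lost under 9 of 13 alternatives. In non-cycling cells Btg2 was at 1275 and 649 against 425 and 759 CPM, where the groups overlapped (-0.62 ± 0.39, adjusted p = 0.897). Cdkn1b, the CDK inhibitor p27, was at 237 and 206 against 97.9 and 83.3 CPM (-1.17 ± 0.29, adjusted p = 0.038). In non-cycling cells Cdkn1b was at 354 and 435 against 197 and 213 CPM, without overlap (-0.98 ± 0.39, adjusted p = 0.41). The Cdkn1b call did not hold under 7 of 12 alternatives, among them without vehicle 2 (adjusted p = 0.132), PM 1 (0.385), PM 2 (0.801) or the other-lineage cells (0.0587), and the Btg2 call did not hold without PM 2 (0.0625). Of the 42 tested S phase and 54 G2 and M phase genes none passed in all gated cells. In cycling cells, once 2 and 11 genes of the cycling rule were left out, none of 39 and 43 passed, the medians were -0.14 and -0.16, and an unadjusted p under 0.05 was reached by 1 and 3 genes. Mki67, 1 of the 15 genes of the cycling rule, was at 921 and 930 CPM in cycling vehicle cells and 864 and 1053 CPM in cycling PM cells.

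**Figure D3:**
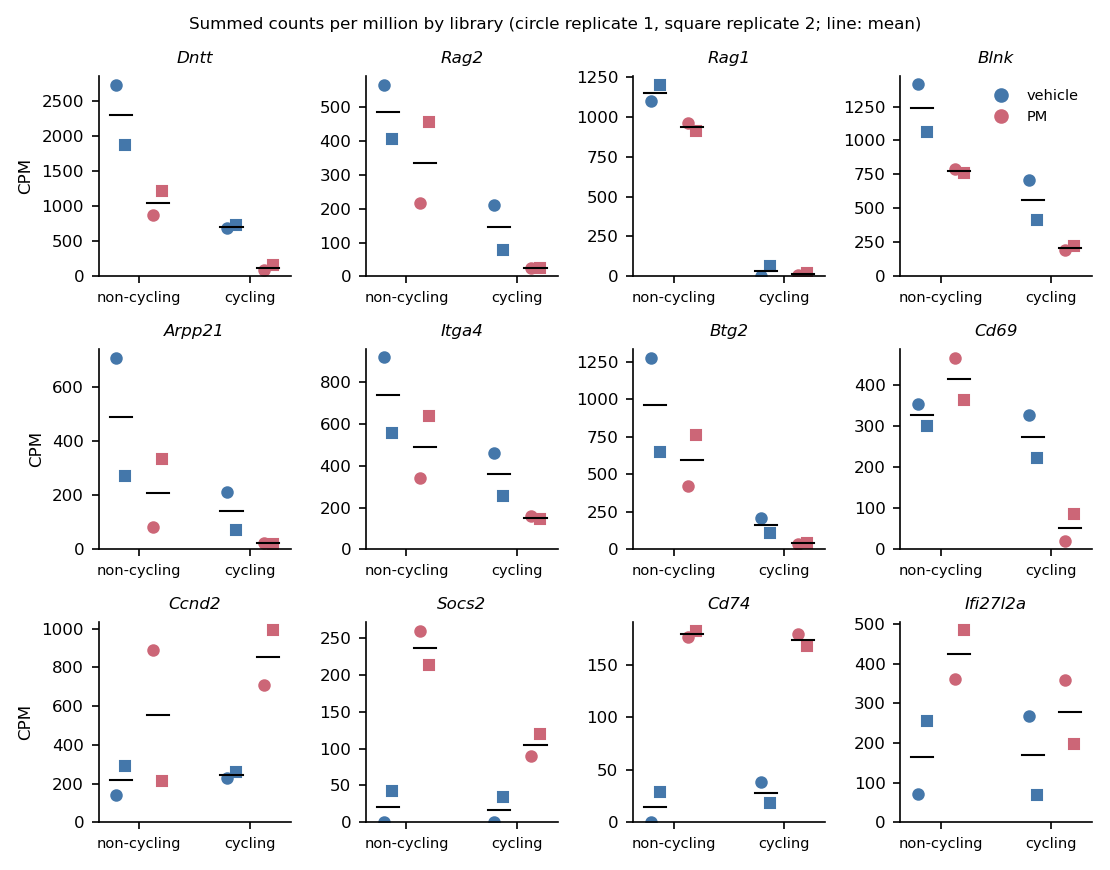
CPM (linear axes from 0) in the summed non-cycling and cycling cells of each library for 12 genes, vehicle blue and PM red, with circles for replicate 1, squares for replicate 2 and lines for the mean. In cycling cells Dntt, Ccnd2, Cd69 and Cd74 separate the groups, and in non-cycling cells Rag1 and Ccnd2 values lie closer together or overlap.

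Of the 29 tested of 30 genes of Myc and ribosome biogenesis, Npm1, Nop58 and Hspd1 rose, where 0.221% of all genes tested did. In all, 27 of the 29 had a log2 fold change above 0 and 24 an unadjusted p under 0.05, and the median was 0.81 against 0.02 over all genes. Npm1, the nucleolar chaperone, was at 1232 and 1683 CPM in vehicle and 2654 and 2727 CPM in PM (0.93 ± 0.24, adjusted p = 0.0457). Nop58, a core protein of box C/D particles, was at 112 and 206 against 393 and 372 CPM (1.14 ± 0.27, adjusted p = 0.0223). Hspd1, the mitochondrial chaperonin, was at 137 and 421 against 689 and 708 CPM (1.15 ± 0.29, adjusted p = 0.0484). The calls were lost under 9 (Npm1), 4 (Nop58) and 7 (Hspd1) of 12 alternatives. All 3 were lost without the other-lineage cells (adjusted p = 0.0958, 0.0587 and 0.0847). They were also lost without PM 1 and without PM 2, and those of Npm1 and Hspd1 without vehicle 1. Over the alternatives the log2 fold changes ran from 0.70 to 1.27 (Npm1), 0.92 to 1.91 (Nop58) and 0.76 to 2.49 (Hspd1). Within cycling cells none of the 29 passed, 27 were above 0, 20 had an unadjusted p under 0.05 and the median was 0.69. Within non-cycling cells 10 of the list's genes could be tested, none passed, 8 were above 0, 1 had an unadjusted p under 0.05 and the median was 0.37. There the list made up 3.68 and 4.71 per mille of UMIs in vehicle and 7.14 and 3.77 per mille in PM. Npm1 was at 815 and 820 against 1565 and 790 CPM (0.64 ± 0.37, adjusted p = 0.85). The groups overlapped in both. Myc was at 24.9 and 136 CPM in vehicle and 203 and 174 CPM in PM (0.81 ± 0.32, adjusted p = 0.293). Outside the list, Mdn1, a large AAA protein that matures the 60S subunit, rose in all gated cells (49.8 and 47.1 against 107 and 149 CPM, 1.46 ± 0.36, adjusted p = 0.038), with the call lost under 5 of 12 alternatives, among them without vehicle 2 (0.259), PM 1 (0.177), PM 2 (0.697) or the other-lineage cells (0.0587). It also rose in cycling cells (1.57), a call lost under 9 of 13 alternatives.

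Cd74, the invariant chain that carries MHC class II molecules, rose most clearly. It was at 24.9 and 20.95 CPM in vehicle, from 2 and 12 UMIs, and 178 and 169 CPM in PM, from 93 and 69 UMIs (3.05 ± 0.40, adjusted p = 1.57e-06). In cycling cells the values were 38.4 and 18.5 against 179 and 168 CPM (3.06 ± 0.46, adjusted p = 4.19e-07, lost under 2 of 13 alternatives, among them without vehicle 2 at 0.173), and in non-cycling cells 0 and 28.5 against 176 and 182 CPM. The PM values were close in both states. A Cd74 UMI was found in 12.5% and 9.86% of vehicle and 44.3% and 56.8% of PM cells. The neutrophil-rich cells, which should lack Cd74, moved the same way at a lower level, from 23.9 and 16.1 to 76.6 and 44.5 CPM and from 3.17% and 3.02% to 9.40% and 5.27% of cells. In vehicle the gated cells were thus near that background, and in PM above it. The class II chain H2-Aa was at 37.3 and 26.2 CPM in vehicle and 71.0 and 105 CPM in PM (1.68 ± 0.42, adjusted p = 0.038), against 11.5 and 6.61 and then 26.7 and 22.1 CPM in neutrophil-rich cells. Its call was lost under 6 of 11 alternatives, among them without vehicle 2 (adjusted p = 0.406), PM 1 (0.0928), PM 2 (0.717) or the other-lineage cells (0.0663). H2-Eb1, from 1, 3, 20 and 15 UMIs, missed the threshold (2.59 ± 0.68, adjusted p = 0.0532). The part that free RNA plays in these low values was not tested. In the list of interferon gamma, GTPase and MHC genes Cd74 and H2-Aa were 2 of 26 tested of 42, where 0.221% of all genes tested rose, with a median of 0.25 and 19 above 0.

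Of 27 tested type I interferon genes 1 rose, Ifi27l2a, at 199 and 115 CPM in vehicle and 359 and 221 CPM in PM (1.17 ± 0.29, adjusted p = 0.0396), where 0.221% of all genes tested did, and the median was 0.22 with 18 above 0. In neutrophil-rich cells Ifi27l2a was at 104 and 98.1 against 219 and 175 CPM. The call did not hold under 7 of 12 alternatives, among them without vehicle 2 (0.70, adjusted p = 0.363), PM 1 (0.71, 0.887) or PM 2 (1.46, 0.104). In cycling cells it was at 269 and 69.4 against 358 and 197 CPM, where the groups overlapped (1.45 ± 0.36, adjusted p = 0.0292, lost under 9 of 13 alternatives, among them without vehicle 2 at 0.889). Its relative Ifi27 passed in cycling cells but not in all gated cells, at 38.4 and 20.8 against 111 and 82.6 CPM (2.10 ± 0.48, adjusted p = 0.0139), from 2 and 9 UMIs in vehicle, and the call was lost under 6 of 13 alternatives, among them without vehicle 2 (0.519), PM 1 (1) or PM 2 (0.237). Ly6a (Sca-1), an interferon-responsive surface protein, rose from 24.9 and 5.24 to 65.2 and 63.7 CPM (3.04 ± 0.59, adjusted p = 0.00248), from 2, 3, 34 and 26 UMIs, and was at 2.79 and 1.16 against 10.3 and 6.68 CPM in neutrophil-rich cells. Without vehicle 2 the Ly6a call was lost (1.501, adjusted p = 0.428). Ly6d, a B lineage surface protein, was the single gene called in non-cycling cells, at 248 and 136 CPM in vehicle and 632 and 243 CPM in PM (1.66 ± 0.40, adjusted p = 0.0403). The groups overlapped, PM was higher in 3 of 4 pairs, and the call was lost under 5 of 12 alternatives. These were without vehicle 2 (1.12, adjusted p = 0.946), with DESeq2 (0.999), with no filter on low counts (0.926), with cycling called at 5 UMIs (0.83, adjusted p = 0.984) and with the replicate block (0.741).

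Of the 21 tested of 31 immediate early and handling genes 5 fell, Fos, Jun, Jund, Cd69 and Btg2, where 0.382% of all genes tested did, with a median of -0.59, 3 above 0 and 13 at an unadjusted p under 0.05. Fos was at 49.8 and 76.8 CPM in vehicle and 15.4 and 9.80 CPM in PM (-2.39 ± 0.49, adjusted p = 0.0045), but without the 3 other-lineage cells it did not pass (-1.04, adjusted p = 0.635). Jun (373 and 323 against 146 and 176 CPM, -1.01 ± 0.26, adjusted p = 0.0457) and Jund (734 and 353 against 155 and 257 CPM, -1.18 ± 0.28, adjusted p = 0.0359) also lost their calls without those cells (0.0787 and 0.0592) and without either PM library (Jun 0.755 and 0.666, Jund 0.791 and 0.125), Jun without vehicle 2 (0.073) and Jund without vehicle 1 (0.132). In all, the calls of Fos, Jun and Jund were lost under 4 of 10, 8 of 12 and 5 of 12 alternatives. In non-cycling cells the groups overlapped, with Jun at 779 and 749 against 529 and 820 CPM and Jund at 1346 and 856 against 529 and 1184 CPM. Cd69, which holds lymphocytes in tissue, was at 336 and 241 against 104 and 108 CPM in all gated cells (-1.28 ± 0.28, adjusted p = 0.00853). That call was lost under 4 of 12 alternatives, without PM 1 (0.354) or PM 2 (0.424), with DESeq2 (0.289) and at 6 or more Vpreb1 and Igll1 UMIs (0.0862). The values of Cd69 differed by state. In cycling cells Cd69 fell from 326 and 222 to 21.2 and 85.3 CPM (-2.19 ± 0.36, adjusted p = 5.36e-06), and in non-cycling cells it was at 354 and 300 against 466 and 364 CPM (0.50 ± 0.38, adjusted p = 0.901). The test of the difference between the states gave -2.85 ± 0.55 (adjusted p = 0.00255), 1 of 3 differences called among 3485 genes (0.0861%), 2 higher (0.0574%) and 1 lower (0.0287%). Without PM 1, which had 9 UMIs in cycling cells, both the fall in cycling cells (-1.54, adjusted p = 1) and the difference (-1.62, adjusted p = 1) were lost, and the difference also without vehicle 2 (-3.20, adjusted p = 0.0568). With cycling called at 5 UMIs the Cd69 fall was -1.20 (adjusted p = 0.538) and the difference -0.88 (adjusted p = 1), and with DESeq2 neither passed (adjusted p = 0.275 and 1).

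No gene passed in a short list of genes that HDAC inhibitors are known to raise. The list is not complete, and Cd74 and H2-Aa, which rose, are not on it. Of that list, which also holds the HDACs, 13 of 22 were tested, the median was -0.30 and 3 had an unadjusted p under 0.05. H1f0, a linker histone gene that HDAC inhibitors commonly raise, was at 112 and 126 CPM in vehicle and 72.9 and 78.4 CPM in PM (-0.64 ± 0.33, adjusted p = 0.491). None of 22 tested histone genes passed (2 at an unadjusted p under 0.05), but in cycling cells 20 of 21 were below 0, with a median of -0.59 and 9 at an unadjusted p under 0.05. None passed among 9 BCL2 family genes (1 at an unadjusted p under 0.05, median 0.06), 12 p53 targets (3, -0.03), 14 glucocorticoid-responsive genes (4, -0.31) or 13 genes of PRC2, Ikaros and cereblon (2, 0.12).

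**Figure D4:**
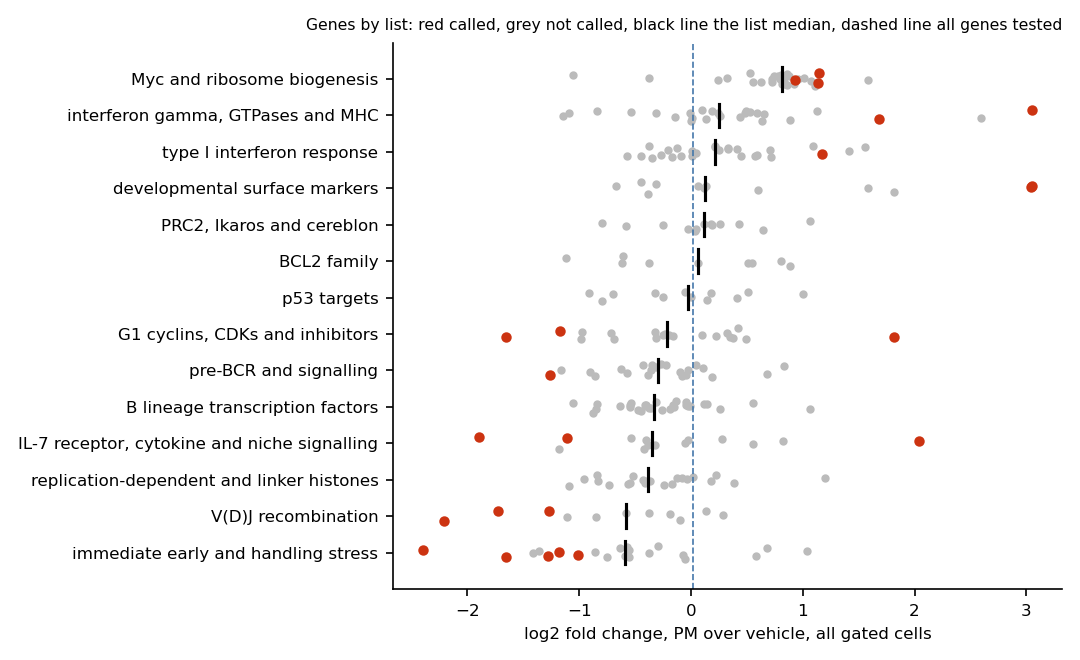
Log2 fold change (PM over vehicle) of every tested gene of 14 lists over all gated cells, called genes red, other genes grey, the list median a black line and the median of all tested genes a dashed line (the pre-BCR list includes Vpreb1, Igll1 and Cd79a, which chose the cells). The Myc and ribosome list sits to the right (median 0.81) and the V(D)J and immediate early lists to the left (medians -0.58 and -0.59).

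Other genes outside the lists also passed. Arpp21, a thymocyte and B cell precursor gene, was at 386 and 120 CPM in vehicle and 34.5 and 46.6 CPM in PM (-2.17 ± 0.40, adjusted p = 0.00256), and it kept its call in all gated cells under every alternative. In non-cycling cells Arpp21 was at 708 and 271 against 82.9 and 334 CPM, where the groups overlapped (-1.26 ± 0.43, adjusted p = 0.275). In cycling cells it fell from 211 and 71.7 to 23.5 and 21.3 CPM (-2.03 ± 0.49, adjusted p = 0.0218), a call lost under 8 of 13 alternatives. Dck, the deoxycytidine kinase of nucleotide salvage, was at 884 and 630 CPM in vehicle and 257 and 360 CPM in PM (-1.17 ± 0.26, adjusted p = 0.00844). In non-cycling cells Dck was at 850 and 863 against 404 and 698 CPM (-0.68 ± 0.39, adjusted p = 0.85). Tifa, an adaptor in TRAF6 signalling, and the tetraspanin Tspan13 fell by 1.30 ± 0.26 and 1.29 ± 0.25 on the log2 scale. These 3 fell in cycling cells too, by 1.22, 1.31 and 1.22 (calls lost under 5, 8 and 8 of 13 alternatives), and their calls in all gated cells were lost without PM 1 (adjusted p = 0.746, 0.177 and 0.282) or PM 2 (0.377, 0.666 and 0.666). Among the rises, Rnase12 was at 0 and 10.5 CPM in vehicle and 90.2 and 61.3 CPM in PM (3.09 ± 0.54, adjusted p = 0.000897), from 0, 6, 47 and 25 UMIs. Myl10 was at 12.4 and 15.7 CPM in vehicle and 106 and 61.3 CPM in PM (2.50 ± 0.48, adjusted p = 0.00248). The calls of Rnase12 and Myl10 were lost without PM 1 (adjusted p = 0.0928 and 0.361), and that of Myl10 without vehicle 2 (0.121). Fcer1g, a myeloid gene, fell (24.9 and 62.9 against 11.5 and 2.45 CPM, -2.79 ± 0.59, adjusted p = 0.00597) only with the other-lineage cells in the sum, and without them it was too low to be tested. Further calls in all gated cells were Mif, Park7 and Slc19a1, which rose, and Klhl24, Sqstm1, Pde4b, Gse1, Gpam, Smtnl2, Pik3cg, Adgrg1 and Tnfrsf19, which fell. Without the other-lineage cells the calls of Mif (adjusted p = 0.0609), Park7 (0.0768), Slc19a1 (0.0776), Smtnl2 (0.0587), Pik3cg (0.0609), Adgrg1 (0.0587) and Tnfrsf19 (0.136) were lost, and each of these 12 calls was lost under at least 1 alternative, from 1 for Klhl24 to 8 for Tnfrsf19.

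The PM effect was then set beside that in the 1094 small pre-B and immature B cells and the 1696 mature B cells of the same mice, with a test of each difference. The rules for these cells asked for Cd79a and Cd79b and no Vpreb1 or Igll1, with Ighd at most 1 UMI or at least 2. On their own they had 444 of 8720 genes called (5.09%, with 2.76% higher and 2.33% lower) and 150 of 9084 (1.65%, with 1.07% higher and 0.583% lower), from more cells. The effect differed in 74 of 8191 genes (0.903%, with 0.281% higher and 0.623% lower in the gated cells) from small pre-B and immature B cells and in 49 of 8244 (0.594%, with 0.121% higher and 0.473% lower) from mature B cells, and without other-lineage cells in 97 and 26, of which 38 and 24 were among these. The balance turned round for small pre-B and immature B cells without other-lineage cells (59 higher, 38 lower), without called doublets (18 and 11) and without vehicle 2 (241 and 83), and for mature B cells without vehicle 2 (144 and 57). Neutrophil markers were higher in PM in both of these classes, at 8.2 and 3.58 per mille of UMIs in vehicle and 22.4 and 20.2 per mille in PM in small pre-B and immature B cells and 2.84 and 7.63 against 16.1 and 19.4 per mille in mature B cells, and their part in the differences was not tested beyond leaving out the other-lineage cells. Levels of Cd74 show how far the stages lie apart: 24.9 and 20.95 CPM in pro-B and large pre-B cells of vehicle mice, 2127 and 1823 CPM in small pre-B and immature B cells, and 8138 and 6274 CPM in mature B cells.

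Compared with small pre-B and immature B cells, the PM effect differed in Itga4, Il7r, Bcl2l1, Bcl2, E2f2 and Ezh2, among other genes. Itga4 differed by -1.48 ± 0.31 (adjusted p = 0.007). Il7r fell in small pre-B and immature B cells from 428 and 412 to 128 and 161 CPM (-1.499 ± 0.19) but not in the gated cells, a difference of 1.48 ± 0.30 (adjusted p = 0.0063). Bcl2l1, the survival protein BCL-XL, fell from 108 and 142 to 29.5 and 43.9 CPM in the later cells and was at 49.8 and 55.9 against 59.5 and 98.0 CPM in the gated cells (difference 2.39 ± 0.44, adjusted p = 0.0015). Bcl2 went the other way, rising in the later cells from 45.3 and 54.2 to 143 and 95.5 CPM against 74.7 and 40.2 to 24.9 and 14.7 CPM in the gated cells (difference -2.38 ± 0.53, adjusted p = 0.015). E2f2 and Ezh2, expressed in dividing cells, fell in small pre-B and immature B cells by 1.18 and 1.17, with differences of 1.58 (adjusted p = 0.005) and 1.36 (adjusted p = 0.016). All these calls held without the other-lineage cells. Those of Itga4, Il7r, Bcl2l1, Bcl2, E2f2 and Ezh2 were lost without either PM library (adjusted p from 0.0786 to 0.846) and with DESeq2. Rag2 and Rag1 fell in both classes, and the differences of 0.78 and 0.69 did not pass (adjusted p = 0.657 and 0.608). The small pre-B and immature B class is a mixture. A Rag1 UMI was found in 29.9% and 37.5% of its vehicle cells and 7.92% and 13.2% of its PM cells. For Il7r the shares were 39.1% and 42.1% against 14.7% and 19.5%. The part of a shift among the cells of this class, or in its cycling share given above, in these differences was not tested.

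Compared with mature B cells, the PM effect differed in Cd74, H2-Aa, H2-Eb1, Ccnd2, Cdk6, H1f0 and Rag1, among other genes. Cd74 was at 8138 and 6274 CPM in vehicle and 6350 and 5949 CPM in PM in mature B cells (-0.25 ± 0.18), so that the effects differed by 3.17 ± 0.46 (adjusted p = 6.1e-07), and by 1.88 ± 0.48 (adjusted p = 0.042) from small pre-B and immature B cells, where Cd74 rose from 2127 and 1823 to 4484 and 3700 CPM. H2-Aa and H2-Eb1 differed from mature B cells by 2.13 ± 0.46 (adjusted p = 0.003) and 3.03 ± 0.68 (adjusted p = 0.006). Ccnd2 was at 270 and 123 against 202 and 185 CPM in mature B cells (0.11 ± 0.37), a difference of 1.52 ± 0.30 (adjusted p = 0.003). That difference ran from 1.00 to 2.81 over the alternatives. In small pre-B and immature B cells a Ccnd2 UMI was found in 20.7% and 15.6% of vehicle and 35.2% and 43.9% of PM cells. Ccnd2 was not among the differences called from those cells. Cdk6, a cyclin D partner, rose in mature B cells (1.39 ± 0.21) and was at -0.19 ± 0.25 in the gated cells, a difference of -1.57 ± 0.28 (adjusted p = 7.7e-05). H1f0 rose in mature B cells from 10.1 and 10.1 to 28.7 and 60.8 CPM, differing by -2.65 ± 0.50 (adjusted p = 0.00037), with an adjusted p of 0.0684 once other-lineage cells were left out. Rag1 differed by 2.32 ± 0.45 (adjusted p = 0.0011), which shrank to 0.27 (adjusted p = 0.927) without vehicle 2, whose mature B cells held 70 of the 74 vehicle Rag1 UMIs, and was lost without PM 1 (adjusted p = 0.419). The differences of H2-Eb1, H2-Aa, Ccnd2, Cdk6 and H1f0 were also lost without 1 or more libraries: H2-Eb1 without vehicle 2, PM 1 or PM 2 (adjusted p from 0.216 to 0.286), H2-Aa without PM 1 (0.286) or PM 2 (0.763), Ccnd2 without PM 2 (0.189), Cdk6 without PM 1 (0.212), and H1f0 without vehicle 2 (0.196) or PM 2 (0.355). With DESeq2 those of H2-Eb1, Ccnd2, Cdk6 and Rag1 did not pass. The Cd74 difference from mature B cells held under every alternative that gave a value. The Cd74 difference from small pre-B and immature B cells was lost under 6 of 11 alternatives. These were without vehicle 2, PM 1 or PM 2 (0.152, 0.771 and 1), with DESeq2 (0.365), without called doublets (0.0964) and at 6 or more Vpreb1 and Igll1 UMIs (0.0849).

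**Figure D5:**
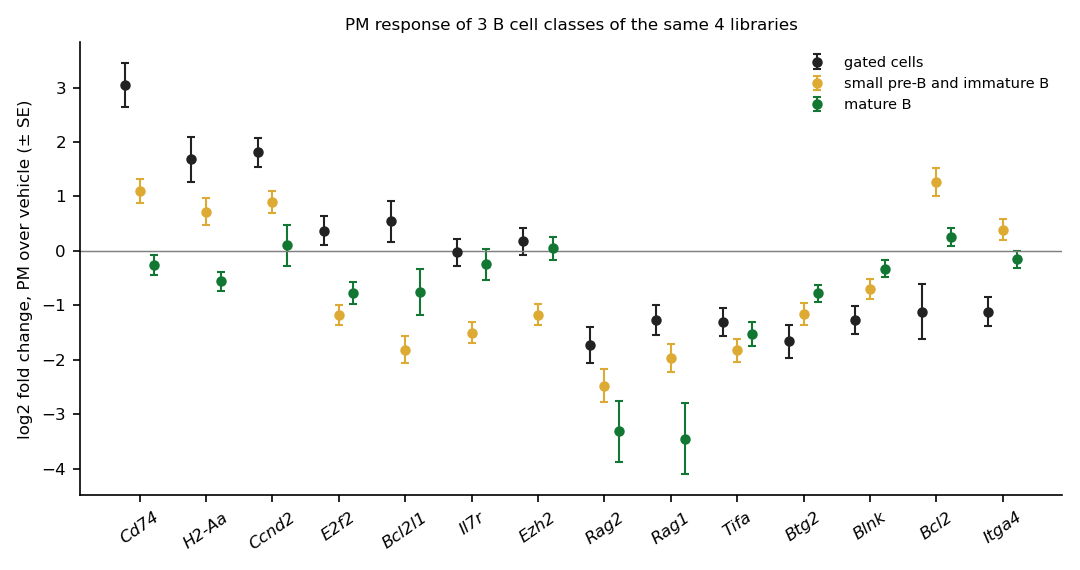
Log2 fold change (PM over vehicle, ± SE) of 14 genes in pro-B and large pre-B, small pre-B and immature B, and mature B cells. Cd74 goes from 3.05 through 1.10 to -0.25 along the stages, and Il7r is at -0.03, -1.499 and -0.25.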

How the data were processed

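Total BM of 4 mice was profiled with 10x 3′ chemistry. Per the methods and file headers, the authors made UMI counts per gene and cell with Cell Ranger 6.0.1, and deposited filtered count matrices of 32285 genes. The methods name GRCm38 and the submitters' processing notes GRCm39, and 32235 gene identifiers were found in GENCODE M21 (GRCm38), which gave coordinates. Counts were summed per library over the chosen cells. Each sum was tested with edgeR 4.0.16 (quasi-likelihood, TMM, filterByExpr, Benjamini-Hochberg over all genes tested, called at adjusted p under 0.05 and an absolute log2 fold change over 0.5) in R 4.3.3, and differences between cell classes as interactions with mouse as block. DESeq2 1.42.0 was an alternative. Doublets were scored with Scrublet in scanpy 1.11.5 and cut at 0.25, since its automatic limit marked almost no cells in 2 libraries. Small pre-B and immature B cells had Cd79a and Cd79b (3 UMIs in sum), no Vpreb1 or Igll1, at most 1 Ighd, no Siglech or Sdc1, at most 1 UMI over Mmp8, Mmp9 and Cxcr2, at most 5 Jchain and 10 Ighg2b UMIs, and mature B cells 2 or more Ighd. The cells, gene lists and tests were chosen with earlier results of these data known, and the neighbour check of Blnk and Dntt, and the alternative without other-lineage RNA, after seeing values. Genes are named from the lists or as the 8 largest rises and falls past the threshold in each comparison, at a mean of 20 CPM or more and the same direction in all pairs of mice, and others were chosen after their values were seen. Results of a few genes are not reported here. The fits were tested on simulated data with known changes. In each simulation all genes had the same dispersion, and no shift in cell mixture or uneven other-lineage RNA was put in. The rates below hold for that setting, which is simpler than the real data. At a log2 change of 1, 37.1%, 27.4% and 31% of changed genes were recovered in all gated, non-cycling and cycling cells. For the differences between classes or states 9.52% to 15.4% were. At a change of 2 the shares were 92.1%, 81.8% and 91.2%, and 49.2% to 53.8% for the differences. False calls numbered 2, 4 and 11, and 1 to 6 for the differences.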

Additional observations from a re-analysis of the deposited data

Results flagged for a closer look

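The PM effect differed between cycling and non-cycling cells in 3 genes. Cd69 differed by -2.85 and Lyz2 by 4.25, and Hba-a2, an erythroid gene, by 5.52. Without the 3 vehicle 2 cells rich in other-lineage RNA the Lyz2 difference was 0.49 (adjusted p = 1), while that of Cd69 was -2.83 (adjusted p = 0.000272). Lyz2 in non-cycling vehicle cells was at 70.8 and 1584 CPM, with the high value in vehicle 2.

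Against small pre-B and immature B cells, the PM effect differed by -7.34 for Fn1, -4.95 for Chil3, -3.56 for Camp, -2.82 for S100a8 and -4.69 for Fcer1g, all myeloid genes. With other-lineage cells left out of both classes the differences were -0.73 for Chil3, -0.55 for Camp, -0.32 for S100a8 and -2.69 for Fcer1g, with adjusted p of 0.694, 0.566, 0.71 and 0.0626, and Fn1 was too low to be tested. Fn1 rested on single libraries, at 0, 83.8, 17.3 and 2.45 CPM in the gated cells and 0, 5.06, 199 and 2.58 CPM in the later cells (vehicle 1, vehicle 2, PM 1, PM 2), and its call was lost without vehicle 2 or PM 1.

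Against mature B cells the effect differed by 3.17 for Cd74, 1.90 for Myl4, -1.96 for Hist1h2ap, -2.25 for Hist1h1b and -2.03 for Chil3. Hist1h1b, a linker histone of dividing cells, rose in mature B cells (1.99 ± 0.36, adjusted p = 0.0075) and was at -0.24 ± 0.25 in the gated cells. Without other-lineage cells the differences of Cd74, Myl4, Hist1h2ap and Hist1h1b kept their calls (3.01, 1.68, -1.30 and -1.78), and that of Chil3 changed sign, to 2.22 (adjusted p = 0.0214). The differences of Hist1h2ap, Hist1h1b and Myl4 were lost without PM 1 (adjusted p = 0.176, 0.108 and 0.0753).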

How the results depend on the processing

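Of the values of named genes under alternatives, 691 kept their direction and side of the threshold, 343 kept the direction but lost the call, 1 gained a call and 1, Chil3 against mature B cells without other-lineage RNA (2.22), reversed. The causes were not tested. With DESeq2 the calls were 8 in all gated, 0 in non-cycling and 2 in cycling cells, and 0, 13 and 10 for the differences between cycling and non-cycling cells, from small pre-B and immature B cells and from mature B cells (in that order below), with 17 non-cycling genes and 13 differences between the states at an unadjusted p under 0.05. At 6 or more Vpreb1 and Igll1 UMIs they were 26 in all gated and 10 in cycling cells. Without other-lineage RNA, chosen after seeing the data, they were 23, 7 and 16, and 1, 97 and 26 for the differences. With no filter on low counts they were 5 in non-cycling and 5 in cycling cells and 5 for the first difference. Without called doublets they were 7 in non-cycling cells and 29 for the difference from small pre-B and immature B cells. A cycling limit of 5 UMIs gave 0 in non-cycling cells (73 at an unadjusted p under 0.05) and 6 in cycling cells. Leaving out 1 library gave 10 to 132 calls in all gated, 0 to 16 in non-cycling and 4 to 52 in cycling cells, and 0 to 7, 20 to 324 and 15 to 201 for the differences, where the lone library of a group is assumed to vary like the other group. The difference in the share of gated cells (PM minus vehicle) ran from -0.48 to 0.255 points when 1 library was left out, and reversed without vehicle replicate 2 (0.255). The paper describes vehicle and PM samples from 2 independent experiments, but the sample labels give no batch. Mice with the same replicate number showed no shared deviation (correlations -0.0201, -0.0559 and -0.0622 in all gated, cycling and non-cycling cells). Sums over so few cells carry much counting error, so this cannot exclude a pairing. With the replicate block 52, 0 and 7 genes were called in all gated, non-cycling and cycling cells (59 non-cycling genes at an unadjusted p under 0.05). Leaving out cells with 4 or more neutrophil UMIs could not be fitted, since fewer than 5 cells stayed in a library. In each library the non-cycling sum was shallower than the cycling sum, and in non-cycling cells of vehicle 1 a single UMI was worth 35.4 CPM.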
